A study of Mus musculus with 15 samples.

Results

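The genes described here are 10 chemokine ligand genes, Ccl2, Ccl3, Ccl4, Ccl5, Ccl6, Ccl7, Ccl9, Cxcl2, Cxcl10 and Cxcl16, which were chosen by name as the CC and CXC chemokines of macrophages. They are 10 of the 57186 genes in the count table, and all 10 passed the filter of at least 10 counts summed over the libraries, as did 19839 genes in all. Poly(A) RNA was sequenced from RAW 264.7 cells, a mouse macrophage line, in 15 libraries, 3 for each of 5 groups. The comparisons ask how silica nanoparticles (SNPs) of different size and porosity change gene expression at doses that the cells tolerate. Control cells were nontreated. The SNP100 group received nonporous particles of 100 nm nominal diameter at 50 µg/mL, and the SNP50 group nonporous particles of 50 nm at 25 µg/mL. The MSNP group received mesoporous particles and the HMSNP group hollow mesoporous particles, both of 100 nm and both at 200 µg/mL. All cells were of the same line, in the same medium, and RNA was taken after 6 h. The dose differs between the nonporous particles and between nonporous and mesoporous particles, so that dose and particle cannot be told apart there. HMSNP against MSNP is the comparison at a dose matched by mass.

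Chemokines are small secreted proteins that bind G protein-coupled receptors on leukocytes and direct their movement along a gradient. Macrophages release them early after contact with microbes, damaged cells or particles, and the mix of ligands sets which cells are recruited. Ccl3, Ccl4 and Ccl5 attract monocytes and T cells, the rodent ligands Ccl6 and Ccl9 act through Ccr1, Ccl2 and Ccl7 recruit monocytes through Ccr2, Cxcl2 recruits neutrophils through Cxcr2, Cxcl10 is an interferon-induced ligand of Cxcr3, and Cxcl16 is a membrane-bound ligand of Cxcr6 that can also be shed.

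Total counts lay between 29369934 and 42617812 per library. All 9 macrophage markers examined (among them Ptprc, Csf1r, Adgre1, Cd68 and Lyz2) were tested, at a summed 12921 to 13882 CPM per MSNP library and 14827 to 19268 CPM per library of the other groups (CPM are counts scaled to a common library total). Against Control, MSNP raised 2 of the 9 (Cd68 and Mrc1) and lowered 4 (Csf1r, Lyz2, Itgam and Fcgr1). Over all tested genes 11.8% were higher and 11.0% lower in MSNP at an adjusted p under 0.05. Of 14 markers of other cell types, 6 were at 0 in every library and all 14 summed to between 0.182 and 0.665 CPM. Cd4, one of these, had 10 to 12 counts per MSNP library and at most 3 per Control library (adjusted p = 0.0143). The part of these markers in the results below was not tested. The Control libraries differed from each other more than the treated libraries did, with a mean chi-square per gene of 51.2 to 159 between pairs of Control libraries and at most 11.2 within a treated group. Control library 3 had more counts on short transcripts (0.51 on the log2 scale above the mean of all libraries in the shortest of 10 length bins) and fewer on long ones (-0.54 in the longest), and all 10 chemokine genes were higher in it than in the mean of the other two Control libraries, by 0.10 to 0.95 on the log2 scale. Each result of the 10 genes against Control is therefore given with and without that library where the call changes. The part of transcript length in the results was not tested, and the calls gained with a length correction stand with the alternatives. The library names also share a prefix within each group that differs between groups. The labels do not say what it marks, so that it and treatment cannot be told apart. The labels do not say that the 3 libraries of a group come from separate cultures, so that p-values measure the spread between these libraries, which may be technical. In bulk RNA, fewer cells with a transcript and less transcript per cell cannot be told apart.

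On GRCm39 (GENCODE vM39), 5 of the genes lie in a cluster on chromosome 11, Ccl5 (83416602 to 83425942), Ccl9 (83463745 to 83473161), Ccl6 (83478708 to 83483913) and Ccl3 (83538670 to 83540191) on the minus strand and Ccl4 (83553383 to 83555509) on the plus strand. Ccl2 (81926397 to 81928279) and Ccl7 (81936532 to 81938351) lie side by side on the plus strand of the same chromosome, and Cxcl16 (70344517 to 70352620, minus strand) farther away. Cxcl2 (91051730 to 91053797, plus strand) and Cxcl10 (92494497 to 92496748, minus strand) are on chromosome 5. Exons of Cxcl16 overlap those of Med11 by 2213 bases and of Zmynd15 by 2132 bases on the other strand, exons of Ccl3 overlap the antisense lncRNA Gm53692 by 276 bases, and exons of Cxcl10 overlap Art3 by 133 bases. Libraries were directional, but whether the counting used strand is not given in the sources used here.

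RefSeq promoter windows (build GRCm38.p6) were matched for Ccl3, Ccl6, Ccl9, Cxcl2 and Cxcl10, and not for Ccl2, Ccl4, Ccl5, Ccl7 and Cxcl16. The 250 bases before the transcription start are shown for 4 genes that moved differently under the particles, Ccl3 (chr11:83649379-83649628, minus strand), Ccl9 (chr11:83578637-83578886, minus strand), Cxcl2 (chr5:90903649-90903898, plus strand) and Cxcl10 (chr5:92348890-92349139, minus strand), each from 5′ to 3′ of the gene. Capitals mark matches on either strand to the NF-kB motif, the core of the interferon-stimulated response element (ISRE, GAAANNGAAA) or the AP-1 motif (TGANTCA).
Ccl3: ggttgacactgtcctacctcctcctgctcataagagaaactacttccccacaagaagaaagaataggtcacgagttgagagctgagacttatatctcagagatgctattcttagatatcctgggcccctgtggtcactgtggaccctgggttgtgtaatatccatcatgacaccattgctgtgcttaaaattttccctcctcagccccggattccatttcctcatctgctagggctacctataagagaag
Ccl9: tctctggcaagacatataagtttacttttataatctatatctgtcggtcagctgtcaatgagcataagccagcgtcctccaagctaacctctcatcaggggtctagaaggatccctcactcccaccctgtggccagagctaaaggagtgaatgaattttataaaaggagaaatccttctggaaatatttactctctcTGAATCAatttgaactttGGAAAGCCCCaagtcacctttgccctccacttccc
Cxcl2: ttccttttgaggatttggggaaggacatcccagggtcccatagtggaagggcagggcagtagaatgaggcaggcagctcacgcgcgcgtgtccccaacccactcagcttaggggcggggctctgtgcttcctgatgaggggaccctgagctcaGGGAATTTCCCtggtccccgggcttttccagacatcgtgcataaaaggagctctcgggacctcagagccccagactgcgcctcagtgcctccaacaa
Cxcl10: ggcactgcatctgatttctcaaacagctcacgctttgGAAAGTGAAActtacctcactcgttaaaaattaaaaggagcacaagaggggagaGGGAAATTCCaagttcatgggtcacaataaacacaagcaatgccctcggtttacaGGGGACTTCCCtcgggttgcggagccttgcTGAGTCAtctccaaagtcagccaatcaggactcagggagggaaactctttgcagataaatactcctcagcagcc
The Cxcl10 window held the ISRE core 213 to 204 bases before the start, an NF-kB match at 159 to 150, overlapping NF-kB matches at 104 to 95 and 103 to 94, and an AP-1 match at 74 to 68. The Cxcl2 window held overlapping NF-kB matches at 97 to 88 and 96 to 87. The Ccl9 window held an AP-1 match at 53 to 47 and an NF-kB match at 35 to 26. In the Ccl3 and Ccl6 windows none of these motifs was matched. Only exact matches to a fixed pattern for each motif were searched, so that sites with other letters or farther away are not covered. Of all 32851 windows of this length, 7.25% held the NF-kB motif, 2.98% the ISRE core and 6.75% the AP-1 motif. These matches describe sequence only.

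In nontreated cells the 10 genes spanned a wide range of levels. Per exon length (RPKM, mean ± SD, n = 3), Ccl9 at 75.9 ± 16.0 and Ccl3 at 71.2 ± 18.3 were highest and overlapped each other, followed by Cxcl16 at 36.3 ± 6.27 and Ccl4 at 17.8 ± 6.09. Ccl2 stood at 3.58 ± 0.776 RPKM. Cxcl2 at 1.65 ± 0.132, Cxcl10 at 1.39 ± 0.224 and Ccl5 at 1.25 ± 0.297 RPKM overlapped in their libraries. Ccl6 at 0.312 ± 0.0931 and Ccl7 at 0.138 ± 0.0957 RPKM were lowest, and Ccl7 had between 1 and 7 counts per Control library.

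**Figure D1:**
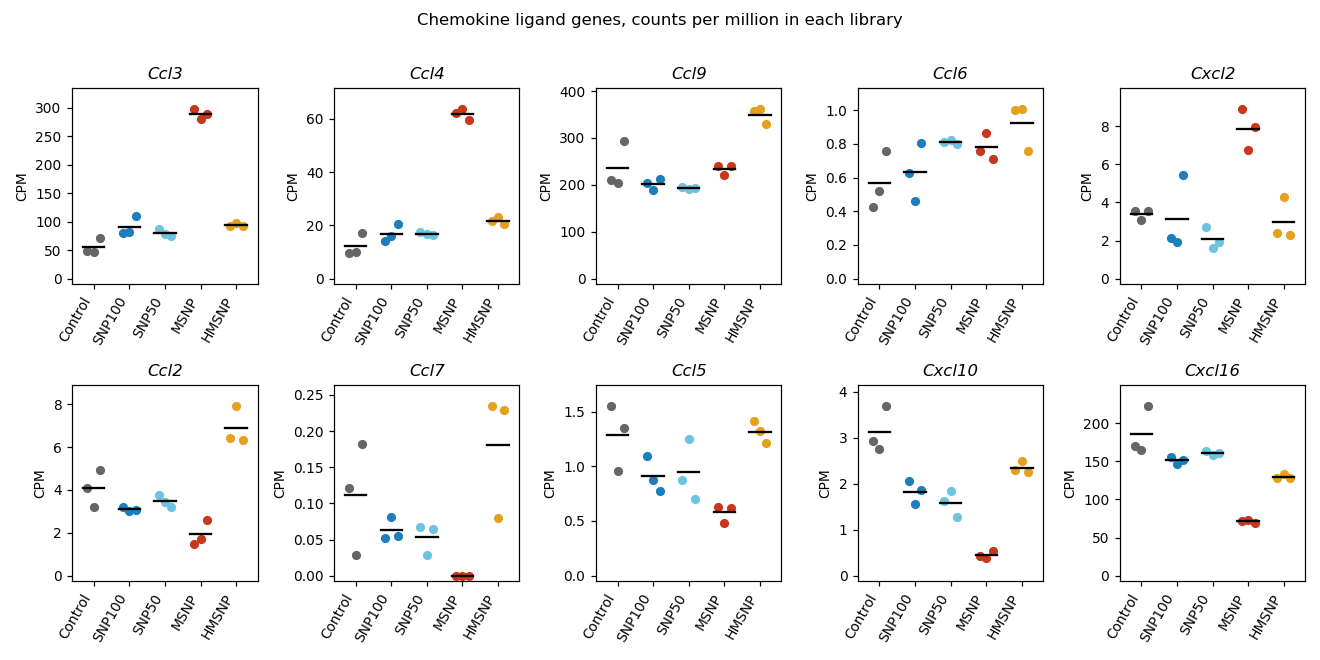
Level of the 10 chemokine ligand genes in each library (y axis, CPM, counts scaled to a common library total; points, libraries; black lines, group means of 3 libraries; each panel has its own scale from 0). The 3 MSNP libraries stand apart from all others for Ccl3 (281 to 299 CPM) and Ccl4 (59.5 to 63.8 CPM) on the high side and for Cxcl10 (0.378 to 0.534 CPM) and Cxcl16 (68.7 to 73.7 CPM) on the low side, and the HMSNP libraries are highest for Ccl9 and Ccl2.

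MSNPs changed 8 of the 10 genes against nontreated cells, in opposite directions. Ccl3, Ccl4 and Cxcl2 rose, while the monocyte ligands Ccl2 and Ccl7, the T cell attractant Ccl5, the interferon-induced Cxcl10 and the membrane-bound Cxcl16 fell. Ccl6 and Ccl9 did not pass the test. In all, 3 of 10 genes rose and 5 fell, where 11.8% of the 19839 tested genes were higher and 11.0% lower at an adjusted p under 0.05 (edgeR's quasi-likelihood test, Benjamini-Hochberg adjustment over all tested genes). The median log2 fold change of the 10 genes was -0.55, beside -0.05 over all tested genes.

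Ccl3, which encodes MIP-1α, had 48.1, 46.0 and 71.6 CPM in Control libraries 1 to 3 and 299, 281 and 290 CPM in the MSNP libraries. The lowest MSNP library lay far above the highest Control library. The log2 fold change was 2.39 (SE 0.16, 5.25-fold, adjusted p = 2.1e-08). Ccl4, which encodes MIP-1β and lies next to Ccl3, had 9.74, 9.92 and 17.1 CPM in Control and 62.1, 63.8 and 59.5 CPM in MSNP, again with no overlap and with a log2 fold change of 2.33 (SE 0.18, 5.03-fold, adjusted p = 1.29e-07). Antisense Gm53692, which shares exon sequence with Ccl3, reached at most 449 counts, beside at least 1578 for Ccl3, and differed by 0.54 (adjusted p = 0.0034). Cxcl2 had 3.56, 3.09 and 3.57 CPM in Control and 8.92, 6.75 and 7.97 CPM in MSNP, a log2 fold change of 1.21 (SE 0.33, 2.31-fold, adjusted p = 0.014). All MSNP libraries were above all Control libraries for these 3 genes.

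Cxcl10 fell furthest among the genes with counts in every library, from 2.92, 2.75 and 3.70 CPM in Control to 0.430, 0.378 and 0.534 CPM in MSNP. The groups did not overlap, and the log2 fold change was -2.80 (SE 0.20, adjusted p = 6.36e-08). Its MSNP values rest on 13, 14 and 18 counts. Cxcl16 fell from 170, 165 and 223 CPM to 71.6, 73.7 and 68.7 CPM, a log2 fold change of -1.38 (SE 0.09, adjusted p = 2.95e-08), so that each MSNP library was below every Control library. Zmynd15 and Med11, which overlap it on the other strand, also fell in MSNP, by 2.35 (adjusted p = 2.23e-08) and by 0.60 (adjusted p = 0.0203) on the log2 scale. Zmynd15 reached at most 727 counts and Med11 at most 1650, beside at least 2167 for Cxcl16, and their part in the Cxcl16 values was not tested.

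Ccl2, which encodes MCP-1, had 4.08, 3.18 and 4.95 CPM in Control and 1.49, 1.70 and 2.58 CPM in MSNP, with a log2 fold change of -1.08 (SE 0.20, adjusted p = 0.000742). Its neighbour Ccl7, which encodes MCP-3, had 4, 1 and 7 counts in Control and 0 counts in all 3 MSNP libraries. With a floor of 3 counts over the group this was at least 3.82-fold lower (edgeR adjusted p = 0.0103). In a model of the 6 libraries of this comparison alone the Ccl7 call was lost, at an adjusted p of 0.0972. Ccl5, which encodes RANTES, had 1.55, 0.954 and 1.35 CPM in Control and 0.628, 0.486 and 0.622 CPM in MSNP, a log2 fold change of -1.15 (SE 0.25, adjusted p = 0.00296). For these 3 genes too the groups did not overlap. The share of all tested genes without overlap was not counted, and these genes were picked by their calls.

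The Ccr1 ligands Ccl9 and Ccl6 stood outside this pattern. Ccl9 had 210.5, 205 and 293.5 CPM in Control and 239, 221 and 240 CPM in MSNP, and the difference of -0.02 on the log2 scale had a 95% interval of -0.25 to 0.21 (adjusted p = 0.93). Without Control library 3 it was 0.18 with an adjusted p of 0.0275, past the threshold. Ccl6 had 0.426, 0.521 and 0.755 CPM in Control and 0.760, 0.864 and 0.711 CPM in MSNP, a difference of 0.44 with an interval of -0.09 to 0.97 (adjusted p = 0.223).

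**Figure D2:**
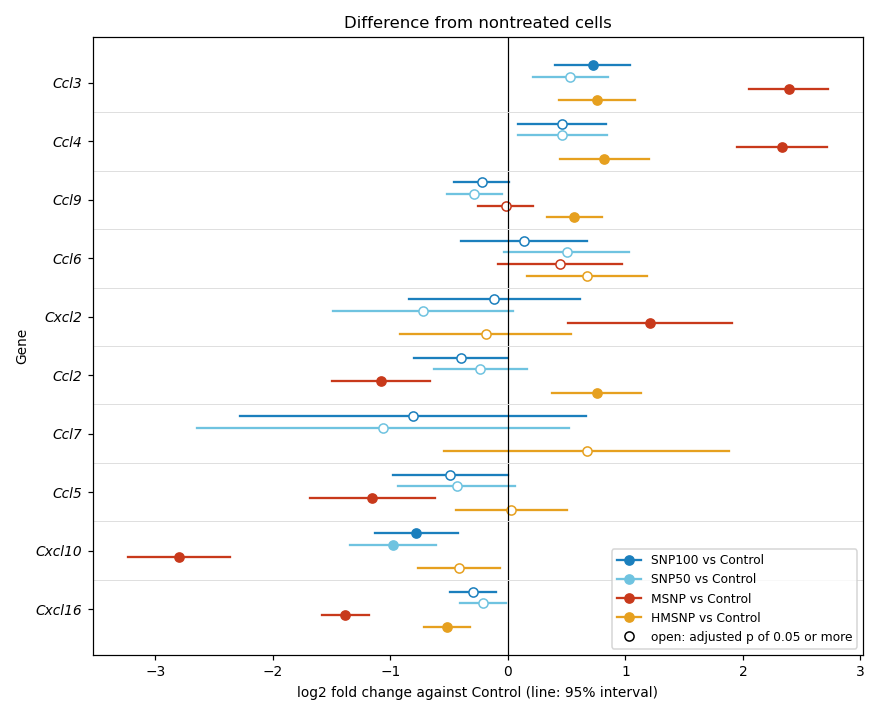
Difference of each particle group from Control for the 10 genes (x axis, log2 fold change from edgeR; lines, 95% intervals; filled points, adjusted p under 0.05; open points, adjusted p of 0.05 or more). The MSNP points lie above 2 for Ccl3 and Ccl4 and below -1 for Ccl2, Ccl5, Cxcl10 and Cxcl16; Ccl7 in MSNP is not drawn because its counts were 0, and HMSNP is to the right of 0 for Ccl2, Ccl3, Ccl4 and Ccl9.

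HMSNPs raised 4 of the 10 genes above nontreated cells, Ccl2, Ccl3, Ccl4 and Ccl9, and lowered Cxcl16. The shares of all tested genes called were 2.46% higher and 2.70% lower. The median log2 fold change was 0.62 over the 10 genes and -0.04 over all tested genes. Cxcl10, Cxcl2, Ccl5, Ccl6 and Ccl7 did not pass the test.

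Ccl3 had 91.7, 97.0 and 91.7 CPM in the HMSNP libraries, above all Control libraries, with a log2 fold change of 0.76 (SE 0.15, 1.69-fold, adjusted p = 0.00823). Ccl4 had 21.6, 23.1 and 20.4 CPM, also without overlap, with 0.82 (SE 0.18, 1.77-fold, adjusted p = 0.014). Ccl2 had 6.41, 7.93 and 6.32 CPM, above all Control libraries and opposite in direction to MSNP, with 0.76 (SE 0.18, 1.69-fold, adjusted p = 0.0234). Ccl9 had 358, 362 and 329 CPM, the highest of any group, with 0.57 (SE 0.11, 1.48-fold, adjusted p = 0.00698). Cxcl16 had 128, 133 and 128 CPM, below all Control libraries, with -0.52 (SE 0.09, adjusted p = 0.00352).

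Ccl6 at 0.999, 1.01 and 0.756 CPM in HMSNP lay just above the Control libraries, with a difference of 0.68 (95% interval 0.16 to 1.19, adjusted p = 0.115). Cxcl10 at 2.29, 2.49 and 2.25 CPM lay below them, with -0.42 (interval -0.76 to -0.07, adjusted p = 0.143). Ccl5 at 1.41, 1.33 and 1.21 CPM differed by 0.03 (interval -0.44 to 0.50) and Cxcl2 at 2.41, 4.27 and 2.31 CPM by -0.19 (interval -0.91 to 0.54), both with overlapping libraries. Ccl7, on 8, 3 and 10 counts, differed by 0.67 (interval -0.54 to 1.89). All 5 calls held without Control library 3, where Ccl6 was called too (0.94, adjusted p = 0.0351), and all 5 were lost in a model of the 6 libraries of this comparison alone, at adjusted p-values of 0.196 to 0.28. Without HMSNP library 2, Ccl2 (adjusted p = 0.12) and Ccl4 (adjusted p = 0.0637) were not called.

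The comparison of HMSNP with MSNP, at the same dose and nominal size, sets hollow against non-hollow mesoporous particles. Per the study these also differ in density and in surface composition, so that the core cannot be told apart from either. The dose was matched by mass, and the study proposes that density and surface could slow the uptake of HMSNPs. Uptake is not part of these data. Of the 10 genes, 9 differed: Ccl2, Ccl5, Ccl7, Ccl9, Cxcl10 and Cxcl16 were higher and Ccl3, Ccl4 and Cxcl2 lower in HMSNP-treated cells. Over all tested genes 9.22% were higher and 11.0% lower. The median log2 fold change was 0.72 over the 10 genes and 0.00 over all tested genes. For each of these 9 genes the libraries of the 2 groups did not overlap. They were picked by their calls, and the share of all tested genes without overlap was not counted.

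Cxcl10 showed the widest difference among genes with counts in both groups, at 2.38 on the log2 scale (SE 0.21, 5.22-fold, adjusted p = 4.82e-07). Ccl2 was 1.84 higher (SE 0.19, 3.57-fold, adjusted p = 3.65e-06). Ccl7, on 21 counts in all against 0, was at least 6.13-fold higher (adjusted p = 0.00255). Ccl5 was 1.19 higher (SE 0.25, adjusted p = 0.00241), Cxcl16 0.86 higher (SE 0.09, adjusted p = 5.02e-06) and Ccl9 0.58 higher (SE 0.11, adjusted p = 0.00106). Ccl3 was lower, at -1.63 (SE 0.15, adjusted p = 1.11e-06), as were Ccl4 at -1.51 (SE 0.17, adjusted p = 1.01e-05) and Cxcl2 at -1.39 (SE 0.33, adjusted p = 0.00609). Ccl6 differed by 0.23 with an interval of -0.26 to 0.73 (adjusted p = 0.583). The calls of all 9 genes held in each of the 23 alternatives that gave a value.

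**Figure D3:**
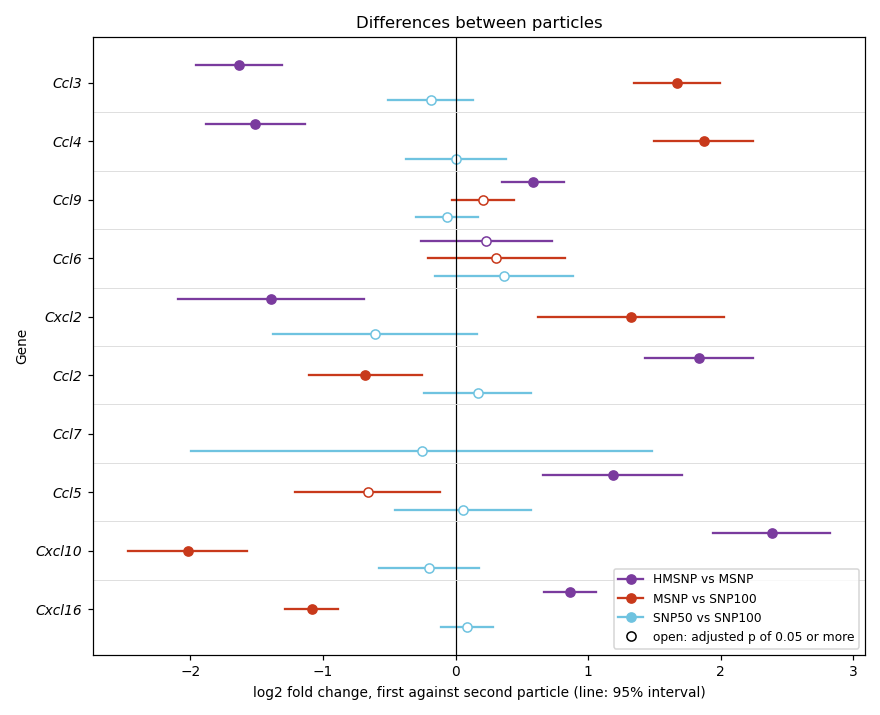
Differences between particle groups for the 10 genes (x axis, log2 fold change of the first against the second group; lines, 95% intervals; filled points, adjusted p under 0.05). For Ccl3, Ccl4 and Cxcl2 the HMSNP against MSNP points lie below -1 and the MSNP against SNP100 points above 1, while the SNP50 against SNP100 intervals all include 0; Ccl7 is drawn only for SNP50 against SNP100.

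Few of these genes passed the test with nonporous particles. SNP100 raised Ccl3 and lowered Cxcl10, and SNP50 lowered Cxcl10. Of all tested genes, 0.509% were higher and 0.403% lower in SNP100, and 0.454% higher and 0.958% lower in SNP50. At an unadjusted p under 0.05 there were 5 of the 10 genes in each comparison, beside 2085 of the 19839 tested genes in SNP100 and 2384 in SNP50. The median log2 fold change of the 10 genes was -0.26 in each comparison, beside -0.02 over all tested genes in SNP100 and -0.00 in SNP50.

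Cxcl10 had 2.06, 1.55 and 1.86 CPM in the SNP100 libraries and 1.62, 1.84 and 1.28 CPM in the SNP50 libraries. All 6 lay below every Control library. The log2 fold change was -0.78 (SE 0.17, adjusted p = 0.0392) for SNP100 and -0.98 (SE 0.17, adjusted p = 0.0101) for SNP50. Ccl3 had 80.1, 82.2 and 111 CPM in SNP100 and 87.2, 77.8 and 74.6 CPM in SNP50, all above the Control libraries. It differed by 0.72 (SE 0.15, adjusted p = 0.0354) in SNP100 and by 0.53 (SE 0.15, adjusted p = 0.115) in SNP50.

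Ccl4 had 14.3, 16.0 and 20.4 CPM in SNP100 and 17.6, 16.9 and 16.3 CPM in SNP50, which overlapped Control library 3, and differed by 0.46 in each (adjusted p = 0.354 and 0.289). Cxcl16 was 155, 147 and 152 CPM in SNP100 and 163, 158 and 161 CPM in SNP50, below all Control libraries, with differences of -0.30 (adjusted p = 0.199) and -0.21 (adjusted p = 0.361). Cxcl2 was uneven in SNP100, with 2.13, 1.91 and 5.43 CPM, the third library standing above the Control range and the others below it. In SNP50 it had 2.70, 1.62 and 1.92 CPM, and its difference of -0.72 had an interval of -1.49 to 0.04. Ccl2, Ccl5, Ccl6, Ccl7 and Ccl9 differed from Control by between -0.81 and 0.14 in SNP100 and between -1.06 and 0.50 in SNP50, and passed the test in neither.

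These calls rest on few libraries. The Ccl3 call in SNP100 was lost without Control library 1 (adjusted p = 0.0982) or 2 (0.0599) or without SNP100 library 2 (0.0691) or 3 (0.165), and the Cxcl10 call without Control library 1 (adjusted p = 0.0796) or any SNP100 library (0.0723 to 0.206). Leaving out libraries of other groups, which share the estimate of the spread, also ended the Ccl3 call (SNP50 library 2 or 3, HMSNP library 2 or 3, adjusted p = 0.0528 to 0.0599) and the Cxcl10 call (SNP50 library 1, any MSNP or any HMSNP library, adjusted p = 0.051 to 0.0662). Cxcl16 in SNP100 passed without Control library 2 (-0.37, adjusted p = 0.0486). The Cxcl10 call in SNP50 was lost without SNP50 library 1 (adjusted p = 0.053) or 3 (0.0597). In models of the 6 libraries of a comparison alone none of them was called, at adjusted p-values of 0.804 for Ccl3 and 0.642 for Cxcl10 in SNP100 and 0.487 for Cxcl10 in SNP50. Without Control library 3, Ccl3 was called in both nonporous groups (0.95 and 0.76), as was Ccl4 (0.78 in each, adjusted p = 0.000524 and 0.00023).

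SNP50 against SNP100 compares nonporous particles of different size and dose, 25 and 50 µg/mL. Of the 10 genes 0 passed edgeR's test, as did 0 of all tested genes (0% higher and 0% lower). At an unadjusted p under 0.05 there were 867 of the 19839 tested genes, 0 of them among the 10, and DESeq2 called 1 gene, again none of the 10. The estimates lay between -0.61 for Cxcl2 (interval -1.37 to 0.16) and 0.36 for Ccl6 (interval -0.16 to 0.88). For the abundant Ccl9 and Cxcl16 the intervals were narrow, -0.30 to 0.17 and -0.11 to 0.28, and for Ccl7 wide, -1.99 to 1.49.

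MSNP against SNP100 sets a mesoporous beside a nonporous particle of the same nominal size at 200 and 50 µg/mL. Ccl3, Ccl4 and Cxcl2 were higher and Ccl2, Cxcl10 and Cxcl16 lower with MSNPs, that is 3 and 3 of 10, where 10.4% of tested genes were higher and 7.53% lower. The median log2 fold change was -0.23 over the 10 genes and -0.03 over all tested genes. Ccl3 was 1.67 higher (SE 0.15, adjusted p = 1.17e-06), Ccl4 1.87 (SE 0.18, adjusted p = 1.58e-06) and Cxcl2 1.32 (SE 0.33, adjusted p = 0.0099). Cxcl10 was lower, at -2.02 (SE 0.21, adjusted p = 4.78e-06), as were Cxcl16 at -1.09 (SE 0.09, adjusted p = 5.74e-07) and Ccl2 at -0.68 (SE 0.20, adjusted p = 0.0267). Ccl7, at least 2.12-fold lower on 0 against 7 counts, had an adjusted p of 0.0506, and Ccl5 at -0.66 had 0.0946. The Ccl2 call was lost without any one SNP100 library or without MSNP library 1 or 2 (adjusted p = 0.0561 to 0.117), and the Cxcl2 call without SNP100 library 1 (0.0556) or 2 (0.0525). Ccl7 passed without Control library 2 or 3 or HMSNP library 2 (adjusted p = 0.0275 to 0.0376), and Ccl9 passed without Control library 3 (0.22, adjusted p = 0.00301).

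Within the 10 genes the make-up of the mRNA shifted. Per exon length, Ccl3 made up 33.8 ± 0.905% (SD, n = 3) of the summed RPKM of the 10 genes in Control, 48.1 ± 2.94% in SNP100, 45.2 ± 1.54% in SNP50, 40.1 ± 0.797% in HMSNP and 66.8 ± 0.455% in MSNP. Ccl9 made up 36.3 ± 0.62% in Control, 26.9 ± 2.16% in SNP100 and 27.4 ± 1.025% in SNP50. Its share was 37.4 ± 0.858% in HMSNP and 13.4 ± 0.412% in MSNP. The level of Ccl9 itself was 75.9 RPKM in Control, 74.9 RPKM in MSNP and 112 RPKM in HMSNP. Cxcl16 fell from a share of 17.5 ± 0.887% in Control to 12.3 ± 1.45% in SNP100 and 13.8 ± 0.547% in SNP50. Its share was 8.44 ± 0.214% in HMSNP and 2.49 ± 0.123% in MSNP. The summed RPKM itself was 178.5 to 265 in Control and 546 to 573 in MSNP.

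**Figure D4:**
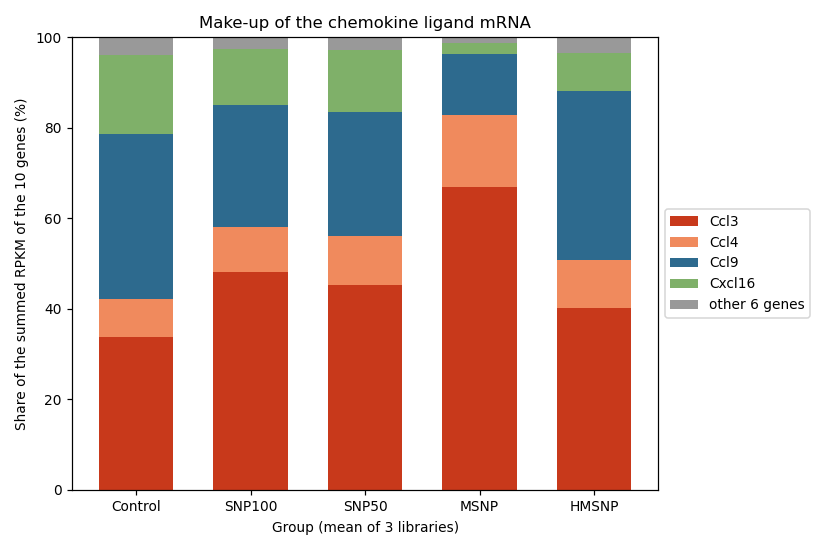
Share of each gene in the summed RPKM of the 10 chemokine ligand genes (y axis, percent; bars, means of 3 libraries per group; Ccl3, Ccl4, Ccl9 and Cxcl16 are shown apart and the other 6 genes are summed). Ccl3 takes 33.8% of the bar in Control and 66.8% in MSNP, where Cxcl16 takes 2.49%.

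Ccl3 and Ccl4, which lie beside each other in opposite orientation, had a ratio of counts between 4.19 and 5.59 over the 15 libraries. The ratio of Cxcl16 to Ccl3 counts was 3.12 to 3.59 in Control, 1.37 to 1.40 in HMSNP and 0.237 to 0.262 in MSNP. As a measure of likeness, the root-mean-square difference of log2 CPM after centring each gene over the 15 libraries was 0.12 between Ccl3 and Ccl4, the smallest of all pairs of the 10 genes, followed by Ccl6 with Ccl9 at 0.31 and Ccl2 with Ccl5 at 0.36. By the same measure, among 9664 other genes with a mean of at least 5 CPM, Atf3 was closest to both Ccl3 (0.19) and Ccl4 (0.20). Atf3 encodes a stress-induced transcription factor. Pdgfb was closest to Ccl9 (0.14), Gtf2h2 and Lfng to Cxcl16 (0.10 each), Dok2 to Ccl2 (0.19) and to Ccl7 (0.39), Pdcd4 to Cxcl10 (0.27), Klf4 to Ccl5 (0.21), Relb to Ccl6 (0.21) and Clec4e to Cxcl2 (0.42). The second closest were Hk3 for Ccl3 (0.25), Litaf for Ccl4 (0.27), Ckap4 for Ccl9 (0.15), Lpl for Ccl2 (0.24), Fgd2 for Ccl7 (0.40), Nectin3 for Cxcl10 (0.28), Mmd for Ccl5 (0.22), Lrrc25 for Ccl6 (0.22) and Fam219a for Cxcl2 (0.45).

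Of 27 other chemokine ligand genes examined, 7 had enough counts to be tested, with a median log2 fold change of -0.66 in MSNP and -0.13 in HMSNP against Control. In MSNP 2 of them fell, and in HMSNP 1. Over all tested genes 11.0% fell in MSNP and 2.70% in HMSNP, and the medians were -0.05 and -0.04. Cxcl14, a CXC ligand, had 54.4, 55.1 and 74.6 CPM in Control and 19.4, 19.3 and 18.6 CPM in MSNP, with a log2 fold change of -1.68 (SE 0.12, adjusted p = 5.04e-08). In HMSNP it had 47.4, 56.4 and 52.3 CPM, higher than in MSNP by 1.44 (adjusted p = 2.75e-07). Cxcl11, which like Cxcl10 is a ligand of Cxcr3, had at most 14 counts per library and fell in MSNP by 1.73 (SE 0.50, adjusted p = 0.0203, called in 18 of the 23 alternatives). Its value was -1.43 without Control library 3 (adjusted p = 0.0721), and -1.27 and -1.54 without MSNP libraries 2 and 3 (adjusted p = 0.1 and 0.075), none past the threshold. Ccl25 fell in HMSNP by 0.47 (SE 0.11, adjusted p = 0.0245, called in 19 of the 23 alternatives), a call lost without any one of the HMSNP libraries (-0.51 to -0.40, adjusted p = 0.0529 to 0.123). Ccl12, Ccl22, Pf4 and Cx3cl1 passed the test against Control with no particle.

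Of 23 receptor genes 15 were tested. Against Control, 3 rose and 4 fell in MSNP, 2 rose and 1 fell in HMSNP, and 2 rose in SNP100. Over all tested genes 11.8% rose and 11.0% fell in MSNP, 2.46% and 2.70% in HMSNP, and 0.509% rose in SNP100. For the 15 receptors the median log2 fold change was -0.56 in MSNP and 0.01 in HMSNP, beside -0.05 and -0.04 over all tested genes. Ccrl2, an atypical receptor that presents chemerin and does not signal itself, had 0.670, 0.694 and 0.651 CPM in Control and 6.74, 6.75 and 6.22 CPM in MSNP, a log2 fold change of 3.28 (SE 0.15, 9.74-fold, adjusted p = 5.33e-10). It was also higher in SNP100 by 0.80 (adjusted p = 0.0385, called in 8 of the 23 alternatives) and in HMSNP by 0.89 (adjusted p = 0.00543). Models of only the 6 libraries compared called Ccrl2 in neither of these groups (adjusted p = 0.736 and 0.162). Cx3cr1, the fractalkine receptor, fell from 826, 918 and 673.5 CPM to 226, 213 and 219 CPM in MSNP, with -1.88 (SE 0.10, adjusted p = 1.49e-09), while its HMSNP libraries lay at 782, 859 and 799 CPM.

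Cxcr4, the receptor of Cxcl12, rose in SNP100 by 0.49 (adjusted p = 0.0196, called in 18 of the 23 alternatives) and in MSNP by 0.75 (adjusted p = 2.04e-05) and fell in HMSNP, by 0.89 (adjusted p = 4.31e-05). Its CPM were 44.8, 52.9 and 44.6 in Control, 83.3, 77.8 and 77.7 in MSNP and 25.6, 28.1 and 23.3 in HMSNP, so that the 3 groups did not overlap. The SNP100 call was lost without Control library 1 (0.47, adjusted p = 0.0867) and without SNP100 library 1 or 2 (0.47 and 0.46, adjusted p = 0.0971 and 0.132). It was also lost in the model of only the 6 libraries compared (adjusted p = 0.55). Ccr1, a receptor of Ccl3, Ccl6 and Ccl9, rose in MSNP by 1.06 (adjusted p = 0.00016). Ccr2, the receptor of Ccl2 and Ccl7, fell in MSNP by 0.46 (adjusted p = 0.033, called in 12 of the 23 alternatives) and was higher in HMSNP by 0.87 (adjusted p = 0.00142). Both Ccr2 calls were lost in models of only the 6 libraries compared (adjusted p = 0.155 and 0.123). Cxcr3, the receptor of Cxcl10, fell in MSNP by 1.17 (adjusted p = 1.41e-05), and Cxcr5 by 1.06 (adjusted p = 0.0207, called in 20 of the 23 alternatives; -0.93 and -0.72 without MSNP libraries 1 and 2, adjusted p = 0.0869 and 0.11). Cxcr2 had at most 6 counts in any library and Cxcr6 at most 2, so that the receptors of Cxcl2 and Cxcl16 named above were barely detected at this depth.

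**Figure D5:**
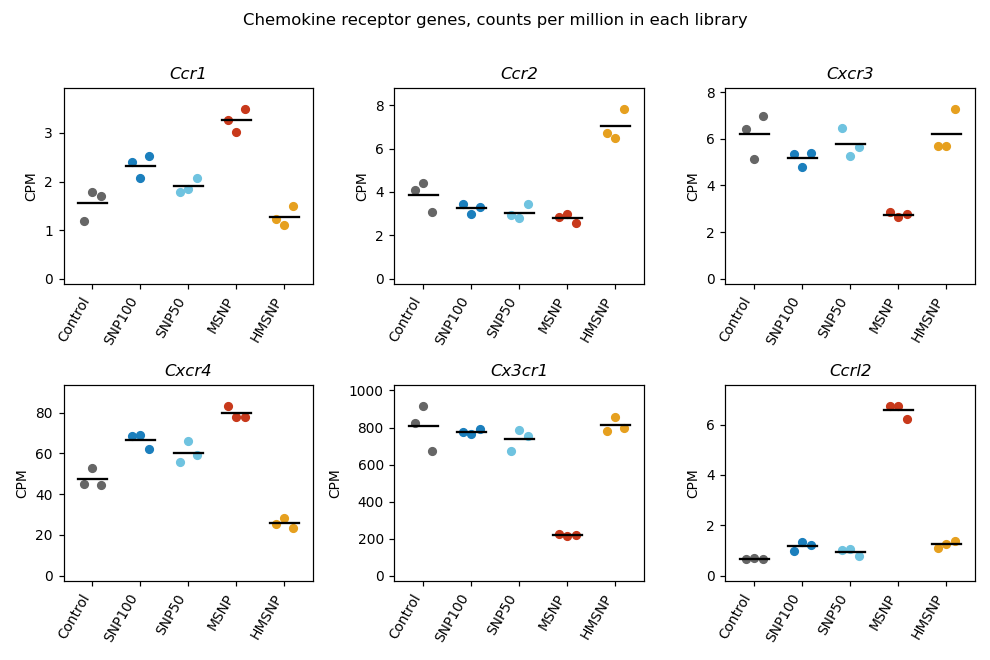
Level of 6 chemokine receptor genes in each library (y axis, CPM, counts scaled to a common library total; points, libraries; black lines, means of 3 libraries; each panel has its own scale from 0). Ccrl2 reaches 6.22 to 6.75 CPM in MSNP, Cx3cr1 drops to 213 to 226 CPM there, and Cxcr4 is highest in MSNP and lowest in HMSNP.

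Of 26 regulators of chemokine transcription, mRNA decay and processing, 25 were tested. In MSNP 4 rose and 11 fell, in HMSNP 4 rose and 2 fell, and in each nonporous group 2 rose and 3 fell. Over all tested genes 0.509% rose and 0.403% fell in SNP100, 0.454% and 0.958% in SNP50, and the shares in MSNP and HMSNP were those given for the receptors. The median log2 fold change of the 25 was -0.33 in MSNP, 0.10 in HMSNP, 0.03 in SNP100 and 0.00 in SNP50, beside -0.05, -0.04, -0.02 and -0.00 over all tested genes. In MSNP 4 genes of interferon regulatory factors fell, Irf7 by 1.44 (adjusted p = 1.14e-06), Irf5 by 0.83 (adjusted p = 3.56e-07), Irf9 by 0.79 (adjusted p = 4.89e-05) and Irf3 by 0.46 (adjusted p = 0.00784). Irf1 differed there by -0.37 and did not pass the test (adjusted p = 0.14). The Irf3 call was lost in the model of only the 6 libraries compared (adjusted p = 0.109). Irf5, Irf7 and Irf9 also fell in SNP100 and in SNP50, by 0.43 to 0.76. Of the 23 alternatives, Irf5 was called in 22 in each nonporous group, Irf7 in 20 in each, and Irf9 in 19 in SNP100 and 9 in SNP50. The Irf7 and Irf9 calls there were lost without some single libraries, with adjusted p of 0.0507 to 0.216. In models of only the 6 libraries compared, Irf5, Irf7 and Irf9 were called in neither nonporous group (adjusted p = 0.481 to 0.515). In HMSNP the values against Control were -0.46 for Irf7 (adjusted p = 0.0501), 0.20 for Irf5 (0.108) and 0.01 for Irf9 (0.966), none past the threshold.

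Among AP-1 genes, Jun rose in MSNP by 1.46 (adjusted p = 1.94e-10) and Atf3 by 2.48 (adjusted p = 2.63e-12). Fos fell from 94.5 to 109 CPM in Control to 9.72 to 10.6 CPM in MSNP, with -3.37 (SE 0.10, adjusted p = 1.11e-11). Atf3 also rose in SNP100 (0.57), SNP50 (0.60) and HMSNP (0.86), and Jun in SNP100 (0.45) and SNP50 (0.54). The nonporous calls of both were lost in models of only the 6 libraries compared (adjusted p = 0.343 to 0.492). Among NF-kB genes, the feedback inhibitor Nfkbia fell in MSNP by 0.74 (adjusted p = 0.00128) and Nfkbiz by 1.38 (adjusted p = 0.000103), whereas Tnfaip3, which encodes the inhibitor A20, rose by 1.20 (adjusted p = 4.52e-06). In HMSNP, of the 5 NF-kB subunit genes, Nfkb2 rose by 0.62 (adjusted p = 2.56e-05) and Relb by 0.59 (adjusted p = 0.00207). Nfkb1 (0.25, adjusted p = 0.111), Rel (0.33, 0.209) and Rela (0.02, 0.892) did not pass the test there. The Relb call was lost in the model of only the 6 libraries compared (adjusted p = 0.193). Nfkbiz fell in HMSNP by 0.82 (adjusted p = 0.0247, called in 19 of the 23 alternatives) and Tnfaip3 rose by 0.53 (adjusted p = 0.0287, called in 17). Both calls were lost without HMSNP library 1 or 2, that of Nfkbiz also without Control library 1 and that of Tnfaip3 also without HMSNP library 3 or MSNP library 1 or 2, with adjusted p of 0.0511 to 0.123. The model of only the 6 libraries compared called neither Nfkbiz nor Tnfaip3 (adjusted p = 0.241 and 0.378). Zfp36, whose protein binds AU-rich mRNAs and promotes their decay, fell in MSNP by 0.95 (adjusted p = 6.75e-05). Mmp12, a metalloprotease that cleaves chemokines, rose in MSNP by 4.02 (SE 0.28, adjusted p = 4.15e-08). Whether any of these genes has a part in the values of the chemokine ligands was not tested.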

How the data were processed

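Directional poly(A) libraries were made by the authors, who deposited raw whole-number counts for each gene in each library. The submitters' processing notes name cutadapt 1.16, STAR 2.7.9a, featureCounts 1.6.3 and GRCm39. The annotation, strand setting and counting options are not given in the sources used here. Groups were taken from the labels, and doses from the study's methods. GENCODE vM39 holds 56630 of the 57186 identifiers, and the others held 0.0224% of the counts.

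The 19839 genes that reached 10 counts over the 15 libraries together were fitted in R 4.3.3 with edgeR 4.0.16 (TMM, one model of all 5 groups, quasi-likelihood test, Benjamini-Hochberg adjustment, threshold 0.05). CPM use TMM-scaled totals and RPKM the exon length. Intervals are at 95%. Overlap of libraries is described for single genes, and its share over all tested genes was not counted. Against a group at 0, folds are bounds from a floor of 3 counts over its 3 libraries, which cover counting error only. The 4 comparisons with Control share its libraries. The 10 genes and all lists were chosen with earlier results of these data known. Genes named beyond them are list members and, for each of the 10, the 2 tested genes of at least 5 CPM that were closest in log2 CPM (prior count 2).

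Alternatives were RLE normalization, DESeq2 1.42.0, filterByExpr, no filter, only the 6 libraries compared, a replicate block, leaving out each library, and a transcript-length offset (lowess, span 0.3, fitted where the mean log2 CPM exceeded 1) with and without Control library 3. On simulated counts for MSNP against Control, 195 of 200 genes changed 2-fold were called among 19499, with 15 false calls. The simulation gave all genes and libraries the same spread, without the wider differences between the Control libraries. Only genes with more counts than Ccl5, Ccl6 and Ccl7 were changed in it. It checks that the code runs as meant and does not give the power of the comparisons reported here.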

Additional observations from a re-analysis of the deposited data

How the results depend on the processing

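Directions and calls were compared over 23 alternatives. All called genes kept their direction in every alternative that gave a value. For HMSNP against MSNP all 206 values of the 9 called genes stayed past the threshold, for MSNP against Control 182 of 183, for MSNP against SNP100 131 of 138, for HMSNP against Control 108 of 115, for SNP50 against Control 20 of 23 and for SNP100 against Control 24 of 46. The filterByExpr filter left out Ccl7.

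The number of the 10 genes called moved by over 1.5 times as follows. In models of only the 6 libraries compared it was 0 for SNP100, SNP50 and HMSNP against Control, beside 2, 1 and 5. With the length offset it was 4 for SNP50 against Control, and with the offset and without Control library 3 it was 4 for SNP100 and 4 for SNP50. DESeq2 gave 2 for SNP50. Single genes also gained calls. DESeq2 called Cxcl16 in SNP100 (-0.29, adjusted p = 0.0427), and the 6-library model called Ccl5 (-0.66, 0.0417) and Ccl9 (0.21, 0.0027) in MSNP against SNP100. With the length offset Ccl6 was called in MSNP (0.65, 0.0402) and HMSNP (0.91, 0.0171), and Ccl4 in SNP100 (0.62, 0.00467). The offset also gave calls for Ccl3 (0.56, 0.00235), Ccl4 (0.52, 0.0125) and Ccl9 (-0.27, 0.0281) in SNP50. In MSNP against SNP100 it gave calls for Ccl7 (0 against 7 counts, 0.0374) and Ccl9 (0.24, 0.00923). With the offset and without Control library 3, calls were added for Cxcl16 in SNP100 (-0.16, 0.0275) and Ccl9 in MSNP against Control (0.15, 0.027). Leaving out 1 library at a time gave 0 to 3 for SNP100, 0 to 3 for SNP50, 8 to 9 for MSNP and 3 to 6 for HMSNP against Control, 4 to 8 for MSNP against SNP100, 9 for HMSNP against MSNP and 0 for SNP50 against SNP100. Without Control library 3 the counts were 3, 3, 9 and 6 for SNP100, SNP50, MSNP and HMSNP. The replicate block gave 1 for SNP100 against Control (Cxcl10 lost, adjusted p = 0.0842) and added Ccl7 for MSNP against SNP100 (adjusted p = 0.0369). RLE normalization also added Ccl7 for MSNP against SNP100 (adjusted p = 0.0491). Deviations from the group mean had correlations of -0.52 to 0.57 between same-numbered libraries of 2 groups. Differently numbered libraries were not compared in this way, so that these values cannot decide whether the numbers pair the libraries.

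Estimates that changed sign all belonged to genes not called. Ccl9 in MSNP against Control was 0.0006 with RLE, 0.0005 with DESeq2, 0.10 with the length offset, 0.15 with the offset and without Control library 3, and -0.11 to 0.18 leaving out 1 library. Cxcl2 in HMSNP against Control was 0.0001 with the offset. Leaving out 1 library gave -0.0719 to 0.40 for Ccl6 and -0.75 to 0.14 for Cxcl2 in SNP100 against Control, and -0.12 to 0.21 for Ccl5 in HMSNP against Control. In SNP50 against SNP100, Ccl4 was -0.0045 with RLE, -0.0047 with DESeq2, -0.0049 with filterByExpr, -0.0067 with no filter, -0.10 with the offset and -0.10 with the offset and without Control library 3; Ccl5 was -0.0481 with the offset and -0.0476 with the offset and without that library. There, leaving out 1 library gave -0.11 to 0.16 for Ccl4, -0.21 to 0.22 for Ccl5, -0.44 to 0.0598 for Ccl7 and -0.87 to 0.0330 for Cxcl2. The cause of these changes was not tested. Ccl7, Ccl6, Ccl5 and Cxcl10 had the fewest counts, which limits precision. The sign changes were not confined to these genes, as Ccl9, Ccl4 and Cxcl2 changed sign too, and Cxcl10 did not.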
